A study of Homo sapiens with 10 samples.

Results

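The 10 interferon-induced effector genes MX1, MX2, IFI6, IFI27, IFI35, IFI44, IFI44L, RSAD2, XAF1 and ISG20 were followed through every deposited expression table of a study of PcTF, the Polycomb-based transcription factor. PcTF is a synthetic protein that joins the histone-binding chromodomain of CBX8 to the red fluorescent protein mCherry and the transcriptional activation domain VP64. The genes were chosen by symbol, and all 10 of 10 were found among the 23245 genes of the tables. The RNA-seq libraries came from 3 established human cancer lines, the leukaemia line K562, the neuroblastoma line SK-N-SH and the osteosarcoma line U-2 OS. In each line 1 library was made from PcTF-transfected cells, which received 2 µg of plasmid, and 1 from mock-transfected cells, which received the transfection reagent and 0 µg of plasmid. Cells were collected at 48 h for K562 and at up to 96 h for the adherent SK-N-SH and U-2 OS lines. The stable-line table set U2OS-PcTF against U2OS-dTF, which are isogenic U-2 OS lines with a transgene that is held off by the Tet repressor and was switched on with 1 µg/mL doxycycline for 96 h. The dTF protein lacks the histone-binding chromodomain. The PcTF column of that table is the authors' mean of 3 libraries, which by the labels are 2 doxycycline-treated U2OS-PcTF libraries and the PcTF-transfected U-2 OS library, whereas the methods of the study speak of replicates of the stable lines. Values are FPKM, fragments per kilobase of transcript scaled to library depth, so levels are per length.

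The products of these genes are made after type I and type III interferons bind their receptors and the JAK kinases activate transcription factors of the STAT family, which join IRF9 and bind a promoter element called the ISRE. Most block a step of viral replication, and together they are widely used as a readout of interferon signalling. The same genes can also be switched on directly by interferon regulatory factors downstream of the sensors for foreign DNA and RNA.

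Promoter sequence is shown for the genes that carry the core letters of the ISRE, the element named above, upstream of their RefSeq start. The letters searched were GAAANNGAAA on both strands in RefSeq windows of 250 bases before and 50 bases after each annotated start (GRCh38.p14), of which 3.57% of 35116 windows held a match. Windows were found for 9 of the 10 genes (MX2 had none), the window nearest to the deposited gene start was used, and each was placed on hg19 by exact sequence match. A match was present in 7 of these 9 windows, and in 6 of them it lay upstream of the start. The match in MX1 lay after the start used, from base 11 to base 20, and IFI35 and XAF1 had no match in the window used. MX1 also has RefSeq starts 5646 and 11457 bases downstream of the deposited start, and XAF1, IFI27, IFI44 and RSAD2 have a further window. Matches in those windows were not looked at gene by gene, so an upstream core at another start is not excluded. The second interferon element, GAS (TTCNNNGAA), was present in 7.66% of all windows and in 2 of the 9, those of IFI27, where it overlapped both ISRE matches, and IFI35. A match is a description of the letters and no measurement of binding. Capitals mark the ISRE core, and TTTCNNTTTC is the same core on the other strand; up to 10 flanking bases are shown on either side, 5′ to 3′ on the strand of the gene.
IFI6 (chr1:27998777-27998869, minus strand): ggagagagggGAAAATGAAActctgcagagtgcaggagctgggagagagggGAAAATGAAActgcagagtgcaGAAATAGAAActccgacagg
IFI27 (chr14:94576964-94577006, plus strand): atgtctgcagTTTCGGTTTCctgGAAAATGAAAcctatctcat
IFI44 (chr1:79115446-79115473, plus strand): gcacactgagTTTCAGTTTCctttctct
IFI44L (chr1:79085959-79086079, plus strand): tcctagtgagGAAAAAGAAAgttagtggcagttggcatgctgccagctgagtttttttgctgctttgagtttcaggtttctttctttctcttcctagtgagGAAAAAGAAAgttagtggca
RSAD2 (chr2:7017753-7017782, plus strand): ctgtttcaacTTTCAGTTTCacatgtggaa
ISG20 (chr15:89182168-89182197, plus strand): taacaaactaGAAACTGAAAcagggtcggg

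The IFI6 window held 3 cores, beginning at bases -156, -115 and -93 from the RefSeq start. The IFI44L window held 2 cores 91 bases apart inside a repeat of 85 identical bases. IFI27 carried 2 cores 13 bases apart on opposite strands. The starts of single annotated genes differ between sources, and the ISG20 stretch lies downstream of the deposited hg19 start.

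The libraries were shallow and, apart from the 2 of stable U2OS-PcTF, unreplicated. The depth found from the step between low FPKM values was 4.27e+06 to 7.39e+06 reads over the 7 single libraries. At that depth, 94.1% to 100% of the low values of single-exon genes lay within 3% of 1 read of a whole number. The depth was chosen to make this share high, so the share is no separate check of the depth. Every value column but the mean of 3 held 1 library, so no difference below has a replicate check. The 95% intervals given are exact binomial intervals on estimated reads that cover counting error only. CBX8, part of which is in PcTF, was at 6.43 FPKM with PcTF and 0.610 FPKM with mock in U-2 OS, at 8.85 FPKM with PcTF and 0.287 FPKM with mock in SK-N-SH, and at 14.3 FPKM with PcTF and 1.59 FPKM with mock in K562. GAPDH and ACTB differed by less than 2-fold in the SK-N-SH and U-2 OS pairs, but GAPDH was at 2894 FPKM in PcTF-transfected and 428 FPKM in mock-transfected K562, so the K562 pair differed in much more than the effector genes. Markers matched the labels in SK-N-SH (PHOX2A, HAND2, GATA3 and DBH present, TH at 0) and K562 (6 of 6 erythroid genes present). In the U-2 OS pair COL1A1, RUNX2 and SPARC were present, but COL1A2 was at 0. ALPL was at 0.110 FPKM with PcTF and 0.194 FPKM with mock there. COL1A1 and SPARC do not set U-2 OS apart from SK-N-SH. They were at 441 and 207 FPKM in mock-transfected SK-N-SH and at 28.7 and 271 FPKM in mock-transfected U-2 OS. Of 7 immune cell markers, 0 reached 1 FPKM in any of the 7 single libraries but those of K562, with a summed level of 0.0750 to 0.409 FPKM. IL3RA and CLEC4C of plasmacytoid dendritic cells were at 0 in all 7 single libraries. In K562, PTPRC and LYZ were present, with a summed marker level of 63.0 FPKM in PcTF-transfected and 61.7 FPKM in mock-transfected cells.

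**Figure D1:**
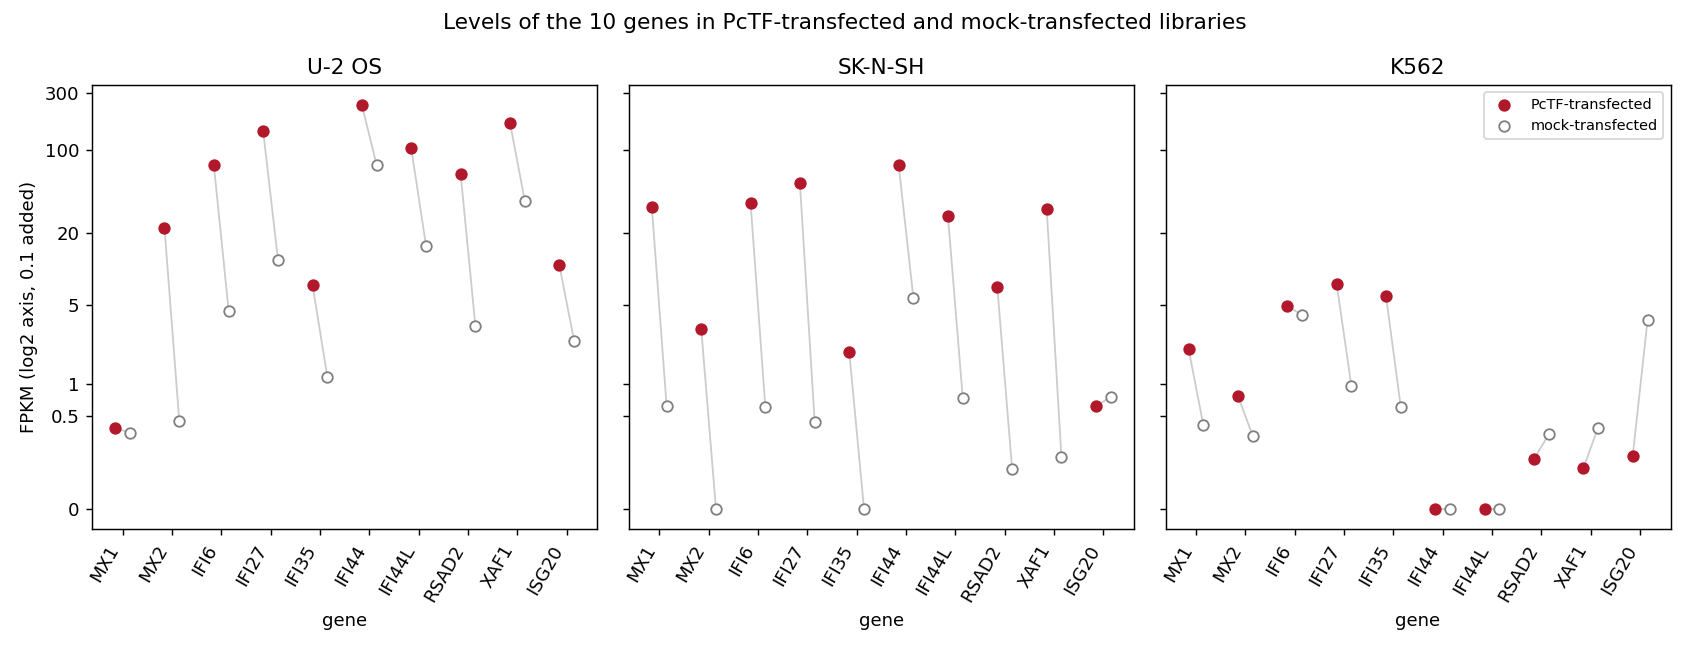
FPKM of the 10 effector genes (log2 axis after adding 0.1 FPKM) in PcTF-transfected (filled) and mock-transfected (open) libraries of each line (a panel each), with 1 library per point. In U-2 OS every gene but MX1 and in SK-N-SH every gene but ISG20 was at least 2-fold higher in the PcTF-transfected library, whereas the K562 points lie at 7.52 FPKM or less and go both ways.

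In U-2 OS, 9 of the 10 effector genes were at least 2-fold higher in PcTF-transfected than in mock-transfected cells, and 0 were 2-fold lower. Over all genes tested, 13.4% were 2-fold higher and 9.18% were 2-fold lower. The median log2 difference of the 10 genes, with 0.1 FPKM added to both values, was 2.63, against 0 over all genes and 0.06 over genes at 1 FPKM or more in both libraries. Their summed level was 828 FPKM in PcTF-transfected and 152 FPKM in mock-transfected cells. In bulk RNA a level change per cell and a change in the number of cells that express a gene cannot be told apart, and red fluorescence was seen by the authors in only part of the transfected cells. The presence of plasmid DNA and that of PcTF also cannot be told apart here, since mock-transfected cells received neither.

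In SK-N-SH, 9 of the 10 were again at least 2-fold higher and 0 were lower, against 10.3% of all genes higher and 6.24% lower. The median log2 difference was 5.04, against 0 over all genes. The summed level was 269 FPKM in PcTF-transfected and 9.15 FPKM in mock-transfected SK-N-SH. The genes started from a lower level in this line: 1 of 10 reached 1 FPKM in mock-transfected SK-N-SH, compared with 8 of 10 in mock-transfected U-2 OS.

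In K562, 4 of the 10 were at least 2-fold higher (MX1, MX2, IFI27 and IFI35) and 2 were lower (XAF1 and ISG20), against 24.9% of all genes higher and 9.08% lower. The median log2 difference was 0.13, where IFI44 and IFI44L were at 0 in both libraries. Over the 5 genes of the group at 1 FPKM or more in either library, 3 were higher and 1 lower, against 29.1% and 12.0% of such genes in the table, and the median was 2.12. Genes at 1 FPKM or more in both K562 libraries had a median of 0.28. Relative to that shift the median of the 10 genes was -0.15, and MX2 was at 0.82, below a 2-fold difference, whereas MX1 (1.84), IFI27 (2.56) and IFI35 (2.80) stayed above it. Their summed level was 21.7 FPKM in PcTF-transfected and 10.7 FPKM in mock-transfected K562, and the highest value of any of them in K562 was the 7.52 FPKM of IFI27.

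**Figure D2:**
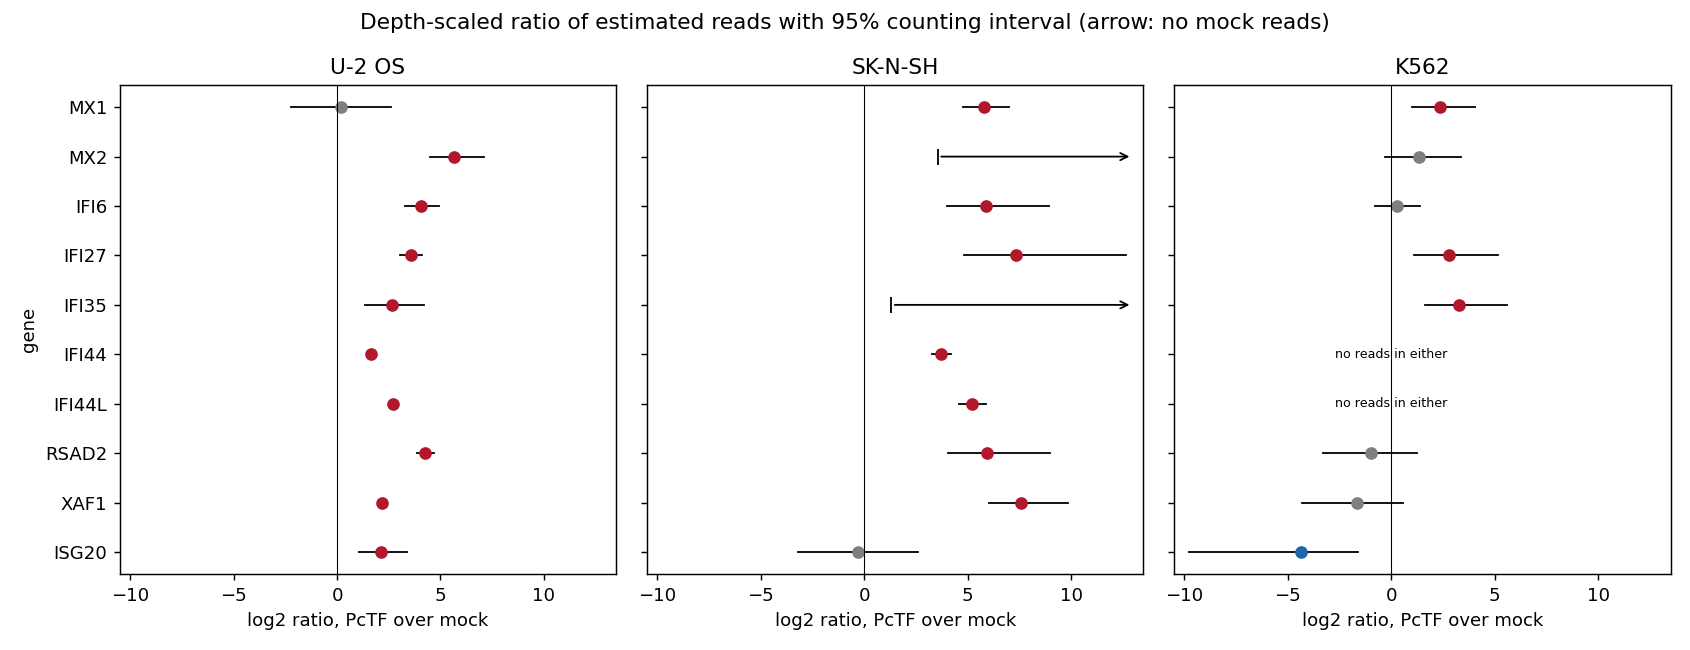
Depth-scaled log2 ratio of estimated reads, PcTF-transfected over mock-transfected, for each gene and line, with exact 95% intervals for counting error (red, interval above 0; blue, below 0; grey, includes 0; arrows run up from the lower bound where the mock-transfected library had no read). In U-2 OS all intervals but that of MX1 and in SK-N-SH all but that of ISG20 lie above 0, whereas in K562 only MX1, IFI27 and IFI35 lie above 0 and only ISG20 below it.

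MX1 and MX2 encode dynamin-like GTPases, of which MX1 (chr21:42792520-42831141) restricts influenza and other RNA viruses and MX2 (chr21:42733950-42780869) restricts HIV. The genes are adjacent, 11650 bp apart. MX1 was at 0.379 FPKM in PcTF-transfected and 0.333 FPKM in mock-transfected U-2 OS, or 4 estimated reads in each, with an interval on the log2 read ratio of -2.24 to 2.61. No difference in MX1 was detectable in U-2 OS at this depth. In SK-N-SH it was at 32.9 FPKM (540 reads) with PcTF and 0.625 FPKM (8 reads) with mock, a log2 difference of 5.51 (interval of the read ratio 4.79 to 7.00). In K562 it was at 2.08 FPKM (40 reads) with PcTF and 0.402 FPKM (5 reads) with mock, a log2 difference of 2.12 (interval 1.00 to 4.04).

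MX2 followed another order of lines. Its log2 difference in U-2 OS was 5.36, the largest of the 10 genes there, with 22.3 FPKM (262 reads) in PcTF-transfected and 0.445 FPKM (6 reads) in mock-transfected cells (interval of the log2 read ratio 4.50 to 7.10). The SK-N-SH values were 3.12 FPKM (55 reads) with PcTF and 0 FPKM with mock. MX2 was at least 11.7-fold higher there by the lower bound of the 95% interval. It was 14.9-fold higher when a floor of 3 reads was set for the mock-transfected library. In K562 it was at 0.783 FPKM (16 reads) with PcTF and 0.310 FPKM (4 reads) with mock, and the interval of -0.30 to 3.38 includes no difference. The MX gene that stood higher changed with the line: MX2 was 58.7-fold above MX1 in PcTF-transfected U-2 OS, and MX1 was 10.5-fold above MX2 in PcTF-transfected SK-N-SH.

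**Figure D3:**
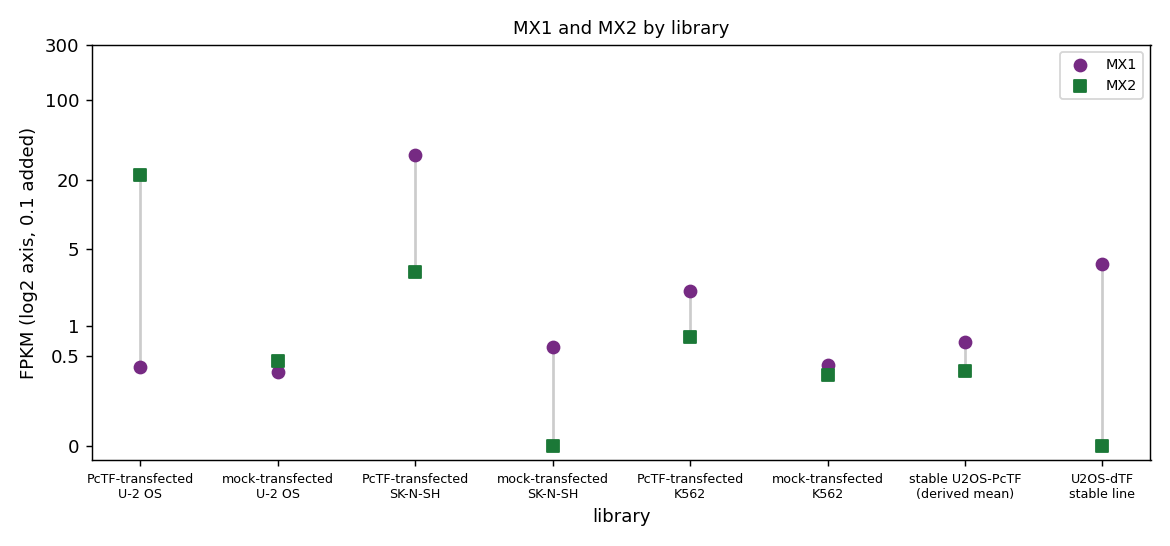
MX1 (circles) and MX2 (squares) in each library as FPKM (log2 axis after adding 0.1 FPKM); the stable U2OS-PcTF point is the mean of 2 libraries derived from the authors' mean of 3. With PcTF in U-2 OS, MX2 lies at 22.3 FPKM and MX1 at 0.379 FPKM, whereas MX1 lies above MX2 with PcTF in SK-N-SH (MX1 32.9 FPKM, MX2 3.12 FPKM) and in U2OS-dTF (MX1 3.64 FPKM, MX2 0 FPKM).

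IFI6 and IFI27 encode small hydrophobic membrane proteins. IFI6 (chr1:27992572-27998724), which inhibits flavivirus replication at the endoplasmic reticulum, was at 74.7 FPKM with PcTF and 4.45 FPKM with mock in U-2 OS, a log2 difference of 4.04 (203 and 14 reads, interval 3.27 to 4.94). SK-N-SH had 36.1 FPKM (146 reads) with PcTF and 0.609 FPKM (2 reads) with mock, a log2 read ratio of 5.89 (interval 4.01 to 8.95). In K562 it was at 4.91 FPKM with PcTF and 4.05 FPKM with mock (23 and 12 reads, interval -0.79 to 1.42), and it was the highest of the 10 genes in mock-transfected K562.

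IFI27 (chr14:94577079-94583033) had the second highest level of the group in PcTF-transfected SK-N-SH. In U-2 OS it was at 143 FPKM with PcTF and 12.0 FPKM with mock, a log2 difference of 3.56 (364 and 35 reads, interval 3.07 to 4.11). In SK-N-SH 52.3 FPKM (about 199.5 reads) with PcTF stood against 0.433 FPKM (1 read) with mock, so that the log2 ratio of 7.34 had an interval of 4.85 to 12.66. The K562 levels were 7.52 FPKM (33 reads) with PcTF and 0.961 FPKM (3 reads) with mock, a log2 read ratio of 2.80 (interval 1.12 to 5.15). Its low values were not whole reads at the length used, so its read numbers are approximate, as are those of MX1.

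IFI44 and IFI44L are adjacent paralogs, 3646 bp apart on chromosome 1, whose products restrain the replication of several viruses. IFI44 (chr1:79115477-79129763) had the highest level of the 10 genes in all 4 SK-N-SH and U-2 OS libraries. In U-2 OS it was at 236 FPKM with PcTF and 74.2 FPKM with mock, a log2 difference of 1.66 (interval 1.52 to 1.81), the smallest among the 9 that were higher. In mock-transfected U-2 OS IFI44 already ranked 635 among all genes. In SK-N-SH it was at 75.0 FPKM with PcTF and 5.69 FPKM with mock, a log2 difference of 3.70 (729 and 45 reads, interval 3.28 to 4.19).

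IFI44L (chr1:79086088-79111830) was lower than IFI44 in every library in which either was detected. It was at 103 FPKM with PcTF and 15.7 FPKM with mock in U-2 OS, a log2 difference of 2.70 (interval 2.56 to 2.86). SK-N-SH cells had 27.7 FPKM with PcTF and 0.746 FPKM with mock, a log2 difference of 5.04 (1001 and 22 reads, interval 4.60 to 5.89). IFI44 exceeded IFI44L by 2.29-fold in PcTF-transfected and 4.73-fold in mock-transfected U-2 OS, and by 2.71-fold in PcTF-transfected and 7.62-fold in mock-transfected SK-N-SH. In K562 both genes were at 0 in both libraries, so a difference in K562 could not be measured for either.

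RSAD2 (chr2:7017796-7038363) encodes viperin, an enzyme that makes a chain-terminating nucleotide. It was at 63.3 FPKM with PcTF and 3.28 FPKM with mock in U-2 OS, a log2 difference of 4.23 (894 and 53 reads, interval 3.86 to 4.69). SK-N-SH cells had 7.04 FPKM with PcTF and 0.116 FPKM with mock, and the 149 reads against 2 gave a log2 read ratio of 5.92 (interval 4.04 to 8.98). In K562 it was at 0.163 FPKM (4 reads) with PcTF and 0.323 FPKM (5 reads) with mock, with an interval of -3.32 to 1.23 that includes no difference.

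ISG20 (chr15:89182039-89198879), an exonuclease that degrades RNA, differed in direction between lines. It was at 10.9 FPKM with PcTF and 2.45 FPKM with mock in U-2 OS, a log2 difference of 2.10 (35 and 9 reads, interval 1.06 to 3.39). In SK-N-SH it was at 0.624 FPKM with PcTF and 0.767 FPKM with mock, which is 3 reads in each library (interval -3.20 to 2.60). In K562 the PcTF-transfected library held 0.179 FPKM (1 read) and the mock-transfected library 3.69 FPKM (13 reads), a log2 read ratio of -4.36 (interval -9.77 to -1.63). Whether the lines differ in ISG20 response was not tested, for want of replicates.

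XAF1 (chr17:6659156-6678964) encodes a partner of the apoptosis inhibitor XIAP and favours cell death. In U-2 OS it was at 169 FPKM with PcTF and 37.5 FPKM with mock, a log2 difference of 2.17 (2462 and 624 reads, interval 2.04 to 2.30). In SK-N-SH 32.1 FPKM (700.3 estimated reads) with PcTF stood against 0.172 FPKM (3 reads) with mock, and the log2 read ratio of 7.57 (interval 6.01 to 9.85) was the largest of the group in that line among genes with mock reads. K562 gave 0.120 FPKM (3 reads) with PcTF and 0.381 FPKM (6 reads) with mock, and the interval of -4.29 to 0.56 includes no difference. A neighbouring gene, FBXO39, begins 587 bp away and was at 1.91 FPKM with PcTF and 0.140 FPKM with mock in U-2 OS.

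IFI35 (chr17:41158742-41166476) encodes a leucine zipper protein that binds NMI and modulates antiviral signalling. It was the gene of the group with the largest log2 difference in K562, 3.08, with 5.93 FPKM (46 reads) with PcTF and 0.612 FPKM (3 reads) with mock (interval of the log2 read ratio 1.64 to 5.60). In U-2 OS it was at 7.36 FPKM with PcTF and 1.17 FPKM with mock (33 and 6 reads, interval 1.38 to 4.19). SK-N-SH gave 1.94 FPKM (13 reads) with PcTF and 0 FPKM with mock, at least 2.48-fold higher by the lower bound of the 95% interval and 3.52-fold against a floor of 3 reads. IFI35, IFI27 and MX2 were at least 2-fold higher in the FPKM of all 3 lines, and for MX2 in K562 counting error alone covers the difference.

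The stable-line table gave large differences that rested on the transfected library in its mean. In the authors' mean of 3 PcTF libraries over U2OS-dTF, 9 of the 10 genes were at least 2-fold higher and 1, MX1, was lower, against 40.4% of all genes higher and 9.84% lower. The median log2 difference was 6.66, where genes at 1 FPKM or more in both columns had a median of 0.31. Relative to that shift IFI6 was at 0.94, below a 2-fold difference. The PcTF-transfected library supplied 89.3% to 99.8% of the summed FPKM of the 3 libraries for 8 of the 10 genes, 75.3% for ISG20 and 21.3% for MX1. Over 12249 genes at 1 FPKM or more in the mean, the median share was 28.9% and 0.890% of genes exceeded 90%.

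**Figure D4:**
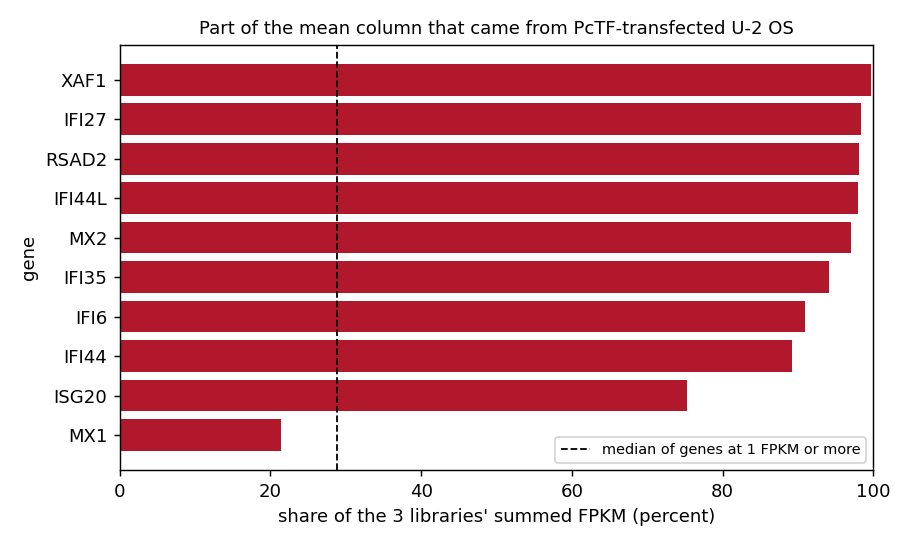
Share of the summed FPKM of the 3 PcTF libraries (percent) that came from the PcTF-transfected U-2 OS library, for each gene, with the median over 12249 genes at 1 FPKM or more as a dashed line at 28.9%. XAF1 has the highest share, 99.8%, and MX1, at 21.3%, is the only gene below the dashed line.

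The level of stable U2OS-PcTF cells, as the average of their 2 libraries, was obtained by subtraction, since 325 genes of the mean column equalled the PcTF-transfected value divided by 3 within 0.01% and 10 of 16049 lay more than 1% below it. Derived in this way, the summed level of the 10 genes was 24.0 FPKM in stable U2OS-PcTF cells, 16.3 FPKM in U2OS-dTF cells and 152 FPKM in mock-transfected U-2 OS. In stable U2OS-PcTF over U2OS-dTF, 7 genes were at least 2-fold higher and 3 lower (MX1, IFI6 and IFI35), against 40.2% and 9.39% of all genes, and the median log2 difference was 2.19. Of the 7, MX2, RSAD2 and XAF1 were below 1 FPKM over a value of 0. Of the 3 lower, IFI35 was below 1 FPKM in both, at 0.230 FPKM in stable U2OS-PcTF and 0.495 FPKM in U2OS-dTF cells. Among the 6 genes at 1 FPKM or more in either column 4 were higher and 2 lower, against 37.5% and 13.8% of such genes. IFI44 was at 14.2 FPKM in stable U2OS-PcTF and 0.566 FPKM in U2OS-dTF cells, the largest log2 difference, 4.42. IFI6 was at 3.73 FPKM in stable U2OS-PcTF and 11.5 FPKM in U2OS-dTF cells (log2 difference -1.59), and MX1 was at 0.699 and 3.64 FPKM in the same cells (-2.23). These 2 libraries were not analysed separately here, so they have no spread.

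Values across the tables were set side by side with the same reservation, that the tables were made separately and the U2OS-dTF column could not be checked against a shared library. In PcTF-transfected U-2 OS over derived stable U2OS-PcTF cells, 9 genes were at least 2-fold higher and 0 lower, against 9.98% and 23.6% of all genes, and the median log2 difference was 5.08. CBX8 differed little between the same cells, with 6.43 FPKM in PcTF-transfected and 4.92 FPKM in stable U2OS-PcTF cells. In derived stable U2OS-PcTF over mock-transfected U-2 OS, 1 gene was at least 2-fold higher (MX1) and 6 were lower, against 28.1% and 9.31% of all genes. MX1 was at 0.699 FPKM in stable U2OS-PcTF and 0.333 FPKM (4 reads) in mock-transfected cells, and its log2 difference was 0.56, below 2-fold, relative to the shift of all genes. XAF1 was lowest by this comparison, at 0.190 FPKM in stable U2OS-PcTF and 37.5 FPKM in mock-transfected cells. The comparison sets doxycycline-treated isogenic lines against mock-transfected cells that had transfection reagent and no doxycycline, so line, doxycycline, reagent and PcTF cannot be told apart.

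**Figure D5:**
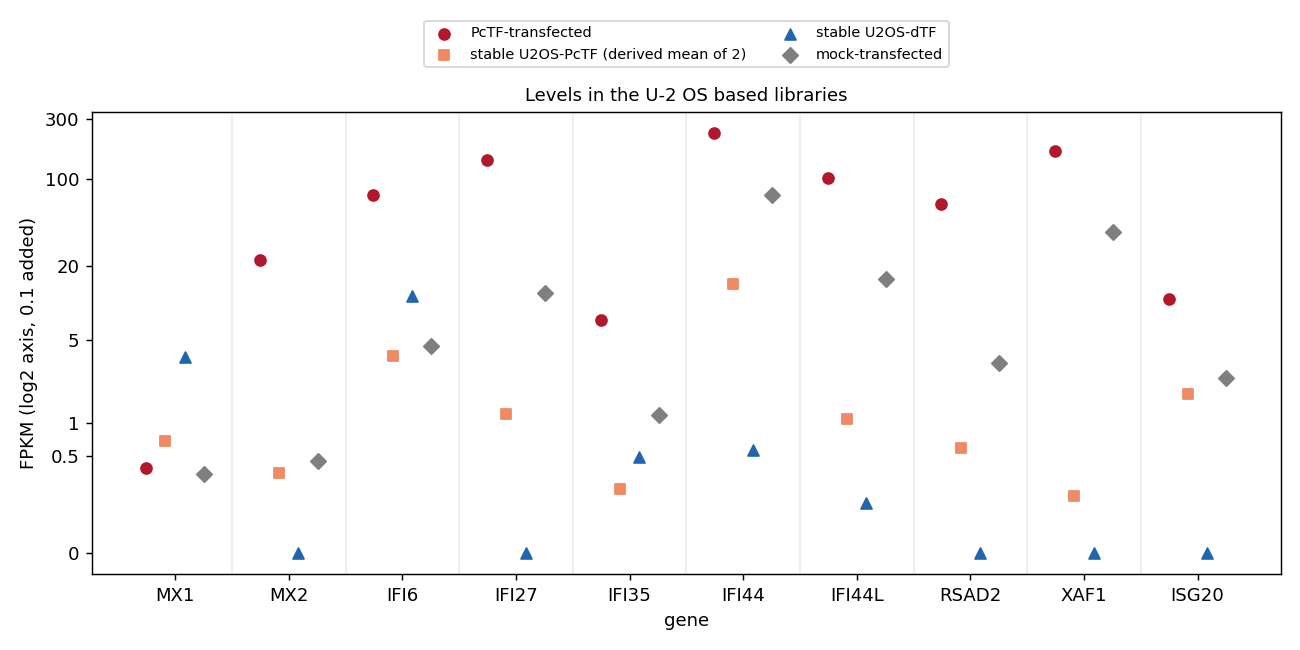
FPKM (log2 axis after adding 0.1 FPKM) of the 10 genes in PcTF-transfected U-2 OS, stable U2OS-PcTF (mean of 2 libraries, derived), stable U2OS-dTF and mock-transfected U-2 OS. For 9 genes the PcTF-transfected point is the highest, and 5 genes are at 0 in U2OS-dTF; MX1 is highest in U2OS-dTF, at 3.64 FPKM.

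U2OS-dTF and mock-transfected U-2 OS, neither of which holds PcTF, also differed in these genes. In U2OS-dTF over mock-transfected U-2 OS, 2 of the 10 were at least 2-fold higher and 8 were lower, against 18.3% and 29.2% of all genes. XAF1 had 0 reads in U2OS-dTF and 624 in mock-transfected cells, with an upper bound of -7.64 on the log2 read ratio. IFI44 had 5 reads in U2OS-dTF and 551 in mock-transfected cells (log2 read ratio -7.03, interval -8.66 to -5.80). MX1 stood the other way, with 54 reads in U2OS-dTF and 4 in mock-transfected cells (log2 read ratio 3.51, interval 2.07 to 5.44). Reference genes also differed between these cells: ACTB was at 2288 FPKM in U2OS-dTF and 422 FPKM in mock-transfected U-2 OS.

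Most other interferon effectors were also higher with PcTF in the SK-N-SH and U-2 OS pairs. Of 23 further effectors, among them the OAS, IFIT and IFITM families, 22 were at least 2-fold higher in PcTF-transfected U-2 OS and 21 in PcTF-transfected SK-N-SH, with 0 lower in either, whereas in K562 6 were higher and 5 lower. The shares of all genes that were higher are 24.9% for K562, 10.3% for SK-N-SH and 13.4% for U-2 OS, and the K562 count of higher genes is near its background. The 5 of 23 that were lower in K562 stand against 9.08% of all genes lower there. Among the 12 of them at 1 FPKM or more in either K562 library, 3 were higher and 3 lower, against 29.1% and 12.0% of such genes. The median log2 difference of the 23 was 0.05 for K562, 2.12 for SK-N-SH and 2.59 for U-2 OS. OAS2, which makes the messenger that activates RNase L, was at 286 FPKM in PcTF-transfected and 12.8 FPKM in mock-transfected U-2 OS. IFITM1, which blocks viral entry, was at 125 FPKM with PcTF and 3.99 FPKM with mock in U-2 OS but at 367 FPKM with PcTF and 1085 FPKM with mock in K562. HERC5, the ligase that attaches ISG15, was at 21.7 FPKM in PcTF-transfected and 1.30 FPKM in mock-transfected U-2 OS. Among genes related by name, IFI16, a DNA sensor, was at 276 FPKM with PcTF and 104 FPKM with mock in U-2 OS, but at 141.7 FPKM with PcTF and 112.4 FPKM with mock in SK-N-SH. Of the 6 other IFI genes, 3 were 2-fold higher for SK-N-SH (median log2 difference 0.63) and 5 for U-2 OS (median 2.29).

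Upstream parts of the pathway were counted in the same way, against the same 10.3% (SK-N-SH) and 13.4% (U-2 OS) of all genes higher. Of 20 type I and type III interferon ligand genes found in the tables, only IFNK reached 1 FPKM in any of the 7 single libraries. It was at 1.25 FPKM in PcTF-transfected and 1.31 FPKM in mock-transfected U-2 OS. The U-2 OS pair held 2 ligand genes that were at least 2-fold higher with PcTF, and the K562 and SK-N-SH pairs held 1 each. All of these were below 1 FPKM, and 0 ligand genes were lower in any pair. The summed ligand level was 2.53 FPKM in PcTF-transfected U-2 OS, with 17 ligand genes at 0. Mock-transfected U-2 OS had 1.31 FPKM, with 19 at 0. Of 9 receptor and JAK-STAT genes 3 were at least 2-fold higher in U-2 OS and 3 were so in SK-N-SH, with 0 lower, and their median log2 difference in U-2 OS was 0.42. TYK2, a kinase of the receptor complex, was at 2.36 FPKM in PcTF-transfected and 1.01 FPKM in mock-transfected U-2 OS, and IRF9 was at 8.07 FPKM with PcTF and 3.75 FPKM with mock there. Of 10 nucleic acid sensors and adaptors 8 were 2-fold higher in U-2 OS and 5 were in SK-N-SH, with 0 lower and a median log2 difference of 1.66 in U-2 OS. IFIH1 and IFI16 are counted both here and among the other IFI genes above. DDX58, which encodes the RNA sensor RIG-I, was at 324 FPKM with PcTF and 56.7 FPKM with mock in U-2 OS, and ZBP1, a sensor of Z-form nucleic acid, was at 3.67 FPKM with PcTF and 0 FPKM with mock. Of 5 factors activated by the sensors, 3 were higher in SK-N-SH and 3 in U-2 OS, among them IRF1 at 6.68 FPKM with PcTF and 1.59 FPKM with mock in U-2 OS. Of 4 feedback genes, ISG15 was at 95.4 FPKM with PcTF and 4.87 FPKM with mock in U-2 OS, and in K562 at 14.3 FPKM with PcTF and 46.7 FPKM with mock.

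Genes next to the 10 on the chromosome were counted because Polycomb marks extend over neighbouring genes. None of the 16 neighbouring genes that are not in the group overlapped a member. Of these 16, 6 were at least 2-fold higher and 4 lower in U-2 OS, 2 higher and 0 lower in SK-N-SH, 7 and 0 in K562, and 10 and 3 in the stable-line table. The shares over all genes were 13.4% and 9.18%, 10.3% and 6.24%, 24.9% and 9.08%, and 40.4% and 9.84% in the same order, and 3 of the 6 in U-2 OS, CMPK2, IFI27L1 and IFI27L2, belong to the lists of interferon effectors and IFI genes above. Some of these calls lie near the floor. In U-2 OS the lower genes TMPRSS2, FGR and SLC13A5 were at 0 FPKM with PcTF and below 0.1 FPKM with mock. In K562 the higher genes TMPRSS2, FAM3B, LOC386597, SLC13A5 and ACAN were below 1 FPKM in both libraries. CMPK2, which encodes a nucleotide kinase and lies 11029 bp from RSAD2, was at 59.8 FPKM with PcTF and 4.40 FPKM with mock in U-2 OS and at 13.7 FPKM with PcTF and 0.952 FPKM with mock in SK-N-SH. VAT1, 145 bp from IFI35, was at 17.4 FPKM with PcTF and 11.9 FPKM with mock in U-2 OS.

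Over the 7 single libraries, the genes whose centred log2 profile lay closest to the mean profile of the 10 were listed from 15121 genes that reached 1 FPKM in at least 1 library. CASP1, the inflammatory caspase, came closest, with a root mean square difference of 0.65 on the log2 scale, and was at 17.1 FPKM in PcTF-transfected and 1.99 FPKM in mock-transfected U-2 OS. SCGB3A2 (0.76), IL1A (0.77), KCNJ15 (0.92), IL5 (0.93), EEF1DP3 (0.95), FAM183A (0.97), LOC100133669 (0.97) and PRKCDBP (1.00) followed, and all of these were below 6 FPKM in every library. With 1 FPKM added in place of 0.1 FPKM, CASP1 stayed on the list of the 10 closest genes and none of these others did. Within the group, RSAD2 lay closest to the mean profile (0.83) and MX1 farthest (3.03). The 7 libraries are 3 pairs and 1 stable line, so this likeness rests on few points.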

How the data were processed

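The study measured RNA by RNA-seq in 10 samples of 3 cell lines. Single-end reads were trimmed by the authors, mapped to hg19 (TopHat2 2.1.0, Bowtie2) and turned into gene levels with Cuffdiff. The FPKM values are as the authors deposited them, scaled to depth and transcript length, 1 library a column except the mean of 3. Columns of the authors' log2 fold change, test statistic, p-value, q-value and significance call were not used. Of the 10 samples, 9 stand behind the columns; the other, labelled U-2 OS transfected with dTF, was not analysed here.

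A gene was called higher or lower when its deposited FPKM differed 2-fold, a value above 0 against 0 included, without a filter; log2 differences had 0.1 FPKM added. No test was run, since each condition had 1 library, except stable U2OS-PcTF, whose 2 libraries were available only within the mean of 3. Depth (4.27e+06 to 7.39e+06 reads) was found from the step of low values of 746 single-exon genes; reads per gene used GENCODE transcript lengths and a fragment length of 200 ± 80 bp, and ratios have exact 95% binomial intervals for counting error only. The subtraction and the interval were tested on simulated data. Deposited gene intervals were written with 1-based starts. The named genes were all 10 members, of each pathway list up to 4 genes at 1 FPKM or more with the largest log2 difference in U-2 OS, the neighbours and the 10 genes of most similar profile; a few genes that this rule or the marker lists hold are not reported here. IFI44 and IFI44L, MX1 and MX2 are paralogs, and how reads that fit both were shared is not given in the sources used here. Alternatives were other fold thresholds, a filter at 1 FPKM, other added values, centring on the median gene and the mean without the transfected library. The members and lists were chosen with earlier results of these data known. Analyses used Python 3.11.15, pandas 2.3.3, numpy 2.4.6, scipy 1.17.1 and matplotlib 3.10.9, and promoter windows are from RefSeq (GRCh38.p14).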

Additional observations from a re-analysis of the deposited data

Results flagged for a closer look

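The deposited FPKM of XAF1 and ISG20 were past 2-fold in opposite directions in K562 and another line. The log2 difference of XAF1, PcTF-transfected over mock-transfected with 0.1 FPKM added, was 6.89 in SK-N-SH and 2.17 in U-2 OS but -1.13 in K562, where it rested on 3 and 6 reads and the interval of the read ratio, -4.29 to 0.56, includes no difference. That of ISG20 was 2.10 in U-2 OS and -3.76 in K562, from 1 and 13 reads in K562. With 1 library per condition the difference between lines was not tested, and GAPDH was itself 6.75-fold higher in PcTF-transfected than in mock-transfected K562.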

How the results depend on the processing

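No paired analysis was possible within a line because each transfected and mock-transfected condition had 1 library, and a fit over the 3 lines as pairs was not run. In U-2 OS, 8 genes were higher with a 4-fold threshold and 9 under the other alternatives, 0 were lower under any, and the median was 2.39 to 2.70. With 1 FPKM added, the SK-N-SH median was 3.77 and that of the stable-line comparison 3.80, and 0.01 FPKM added gave 8.33 there. Centring on the median gene gave a K562 median of -0.15, turning its sign, and 6.35 in the stable-line comparison. With genes at 1 FPKM or more only, the K562 median was 2.12, over 5 genes. The count of lower genes in K562 was 1 with a 4-fold threshold, with genes at 1 FPKM or more only and with 1 FPKM added. Without the PcTF-transfected library, 3 genes of the stable-line comparison were lower, the median was 2.19, and IFI6 (-1.59) and IFI35 (-0.85) turned from higher to lower in PcTF. The IFI35 value lies near the floor, below 1 FPKM on both sides and with 3 estimated reads in U2OS-dTF. Of the 40 gene values, 16 moved with 1 FPKM added, 10 with 0.01 FPKM and 12 with centring, where a move is one beyond counting error, and any change counts for the 10 values of the stable-line comparison and for IFI44 and IFI44L in K562, which had no interval. Depth limits MX1 in U-2 OS, ISG20 in SK-N-SH, and MX2, RSAD2 and XAF1 in K562, each at 6 reads or fewer in at least 1 library.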
